A study of Mus musculus with 6 samples.

Results

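The data describe 9 genes of the Wnt/β-catenin pathway, Wnt2, Fzd1, Fzd3, Lrp6, Dkk3, Axin2, Gsk3b, Ctnnb1 and Lef1, among the 19465 genes counted in 6 coronal sections of mouse brain. The sections came from untreated male C57BL/6J mice, 2 at postnatal day 21 (P21), 2 adults of 12 to 15 weeks and 2 aged animals of 28 months, 1 section per animal. Adults and the parents of the P21 animals were bought from the Jackson Laboratory, whereas aged animals came from the National Institute on Aging. Source and age thus cannot be told apart in the aged group, although the paper's methods name only the Jackson Laboratory. Formalin-fixed, paraffin-embedded tissue was hybridised with Visium probe pairs, which are captured on barcoded spots that each cover several cells. P21 and adult sections were mounted on the capture slides directly and aged sections were transferred with the CytAssist instrument and read with a later Space Ranger version (3.1.1 against 2.0.0). Per the study's methods the aged libraries also used the later Visium kit, whose probe design was altered for sensitivity. The kit named in the labels of the aged samples differs from that in the methods, which were followed here. Every aged against adult difference therefore cannot be told apart from the change of kit, probes, slide, software and animal source. The 9 genes were selected on earlier results from these same counts. Their levels and fold changes are therefore given as description, with no test, and p-values are given only for other genes of the pathway. The lists of those other genes were also chosen with earlier results of these data known.

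Wnt ligands bind a Frizzled receptor and an Lrp co-receptor at the cell surface. Without ligand, a destruction complex built on Axin and Apc lets the kinase Gsk3b mark β-catenin for degradation, and with ligand β-catenin accumulates and enters the nucleus, where it works with Tcf and Lef proteins on target genes such as Axin2. In the brain the pathway is known for patterning, for growth of hippocampal progenitors, for vessel and barrier formation and for synapse maturation, and β-catenin also links cadherins to the cytoskeleton at adhesive junctions.

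After removal of spots with few genes or UMIs (unique molecular identifiers, each counting 1 captured probe molecule), 20336 spots remained, 2917 to 3679 per section, with median depths of 12074.5 to 25535 UMIs per spot and totals of 42422997 to 106783660 UMIs per section. Spots were clustered without the 9 genes, and 6 regions were summed in every section: fiber tracts (FT), striatum (STR), cortex (CTX), thalamus (TH), hippocampus (HP) and hypothalamus (HY). Smaller zones were the medial habenula (MH), ventricular system (VS), meninges (MEN) and the hippocampal subregions CA1-2, CA3, dentate gyrus (DG) and the remaining neuropil matrix. Adult section 1 had no MH spots. The marker panel of each of the 6 regions was highest in its own region in all 6 sections. That order was largely set in advance, because the clusters were named from these same panels. In HY, its own panel ranged from 3095 to 12227 CPM (counts of a gene per zone, scaled to the same total of UMIs) between sections. Because each gene has its own probes levels are compared within a gene only. In such sums, fewer cells of a type and less RNA per cell cannot be told apart.

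Of the 9 genes, Ctnnb1 showed the widest span between ages in the mean over the 6 regions (log2 fold change over adult of 0.57 at P21 and 1.45 in aged brain), being lowest in adult and highest in aged brain in each of the 6 regions (the plot of levels across the 6 regions). Lef1 and Dkk3 differed most between regions, with Lef1 concentrated in TH and Dkk3 in HP and CTX. Wnt2 was concentrated in CA1-2 and Fzd1 in MH. Fzd3 and Axin2 were lower in aged than adult brain in most regions, and Gsk3b and Lrp6 varied little with age or among the 6 regions.

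**Figure D1:**
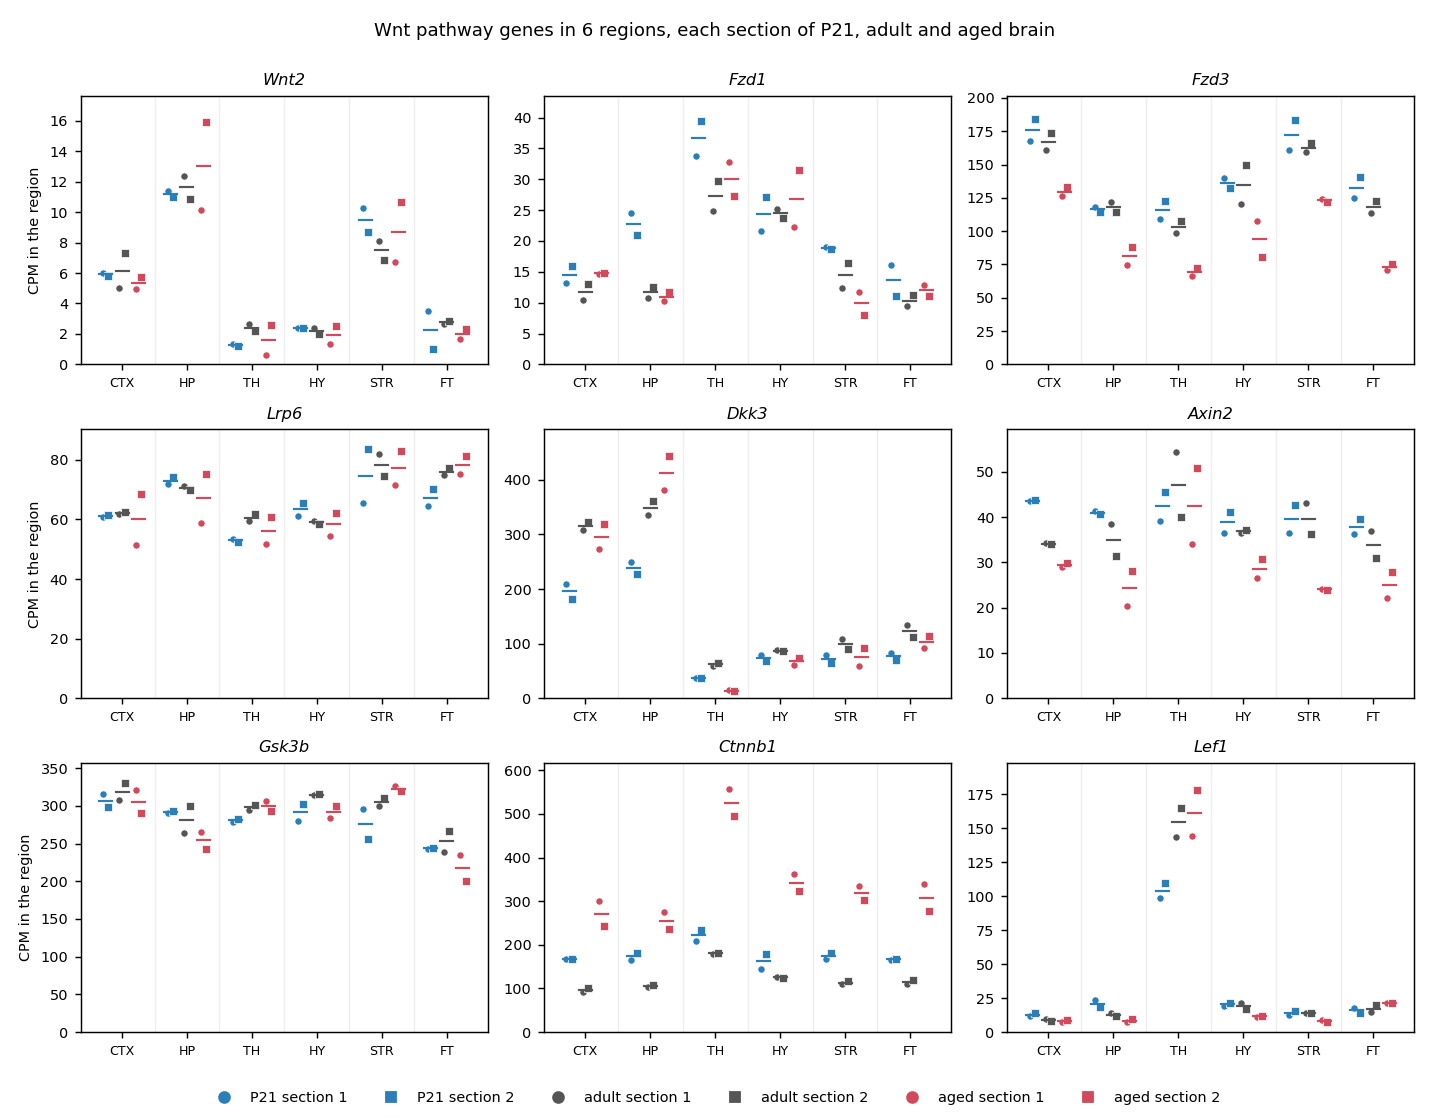
Levels of the 9 genes in CPM (vertical axis, linear, starting at 0) in 6 regions (horizontal axis). Points are single sections of P21 (blue), adult (grey) and aged (red) brain and short lines are means of 2 sections; the aged points of Ctnnb1 lie above all others in each region, at 558 and 494 CPM in TH.

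A TCF/LEF site is commonly recognised by the letters CTTTGA. On the other strand the site reads TCAAAG. As the family of proteins that includes Lef1 binds such letters, they were looked for on both strands of the RefSeq promoter windows (GRCm38.p6, 250 bases before to 50 after each annotated start). They occurred in 5257 of 32851 windows, or 16%. Of the 9 genes, 6 were found in the window table and 3 had a match, in 3 of their 10 windows. Fzd3, Lrp6 and Dkk3 were not analysed here for this feature. The matches are shown with flanking bases on the strand of the gene, 5′ to 3′, with the 6 letters in capitals.
Gsk3b, chr16:38088914-38088939, plus strand, 77 bases before the start: tctccccgccTCAAAGagggagggga
Lef1, a later start, chr3:131156104-131156129, plus strand, 180 bases before the start: aaatacatggTCAAAGgaaaataggt
Lef1, the same start, chr3:131156164-131156189, plus strand, 120 bases before the start: ttgtctgttcTCAAAGtcaggtcttg
Fzd1, chr5:4758443-4758466, minus strand, 242 bases before the start: cgcagcacTCAAAGtagcagtctg
The letters describe the windows and are not evidence of binding. Distances are counted from the RefSeq start of each window, and that of Fzd1 lies outside the GENCODE span of the gene given below.

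Wnt2 (chr6:17988940-18030585, minus strand, GRCm38) encodes a secreted ligand that activates β-catenin signalling. It was the sparsest of the 9 genes, with 170 to 581 UMIs per section, and 4.65 to 11.3% of spots held a UMI. In CA1-2, the band of pyramidal cells of the hippocampus, it reached 52.1 and 44.0 CPM at P21, 54.7 and 48.7 in adult and 45.7 and 63.9 in aged sections. There, 55.6 to 92.9% of spots held a Wnt2 UMI, from 24 to 110 UMIs per section. The level in CA3 was 5.98 to 14.6 CPM and that in DG 0.855 to 2.04 CPM, so all 6 sections had the order CA1-2, CA3, DG with no overlap. Of the 6 regions, HP was highest in all 6 sections and STR second in mean, at 6.72 to 10.7 CPM. In HP the level was 11.4 and 10.99 CPM at P21, 12.4 and 10.9 in adult and 10.1 and 15.9 in aged sections, and the age groups overlapped. Wnt2 did not pass the detection filter in any region.

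Fzd1 (chr5:4753839-4758035, minus strand) encodes a Frizzled receptor. Its level in MH was 102 and 128 CPM at P21, 115 in the adult section that had MH spots and 147 and 182 in aged sections. No other zone passed 51.2 CPM. TH ranged from 24.9 to 39.5 CPM and CTX from 10.5 to 15.9 CPM. MEN, which includes vessels and leptomeningeal cells, held 51.2 and 50.4 CPM at P21, 35.5 and 36.1 in adult and 37.8 and 42.1 in aged sections. In HP both P21 sections (24.5 and 21.0 CPM) were above the adult (10.7 and 12.6) and aged ones (10.3 and 11.7), with a fitted log2 fold change of 0.96 (SE 0.17) for P21 over adult. The aged and adult HP levels overlapped. STR showed a different order, with 19.1 and 18.7 CPM at P21, 12.4 and 16.5 in adult and 11.8 and 8.06 in aged sections.

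Fzd3 (chr14:65192449-65262463, minus strand) encodes a Frizzled receptor best known for axon guidance through the planar polarity branch. It was highest in CTX in 6 of 6 sections, where it measured 168 and 184 CPM at P21, 161 and 174 in adult and 126 and 133 in aged sections. The lowest level was in TH in 5 of 6 sections, and STR lay just below CTX. In FT the values were 125 and 141, 113 and 123, and 71.0 and 75.3 CPM in the same order of ages. Both aged sections were below both adult sections in all 6 regions, by log2 fold changes of -0.38 (CTX) to -0.72 (FT) with a mean of -0.52. P21 and adult differed less, with a mean of 0.09 over the 6 regions. With FT restricted to spots away from its borders, the FT difference was -0.47. The 6 markers of neurons in general summed to 2882 and 2730 CPM in aged and 4367 and 4116 in adult FT. In CTX they were 7467 and 8064 against 8584 and 8065, and in HP they overlapped (6777 and 5781 against 6149 and 6319). Their part in the Fzd3 result was not tested.

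Lrp6 (chr6:134446476-134566965, minus strand), the co-receptor, was the steadiest of the cell-surface genes. It lay between 51.4 and 83.5 CPM in all 36 combinations of region and section, and its mean log2 fold change was -0.05 for P21 and -0.04 for aged over adult. VS stood above the regions in every section, at 126 and 139.6 CPM at P21, 145 and 143 in adult and 164 and 176 in aged sections. The VS zone comprised 13 to 65 spots per section.

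**Figure D2:**
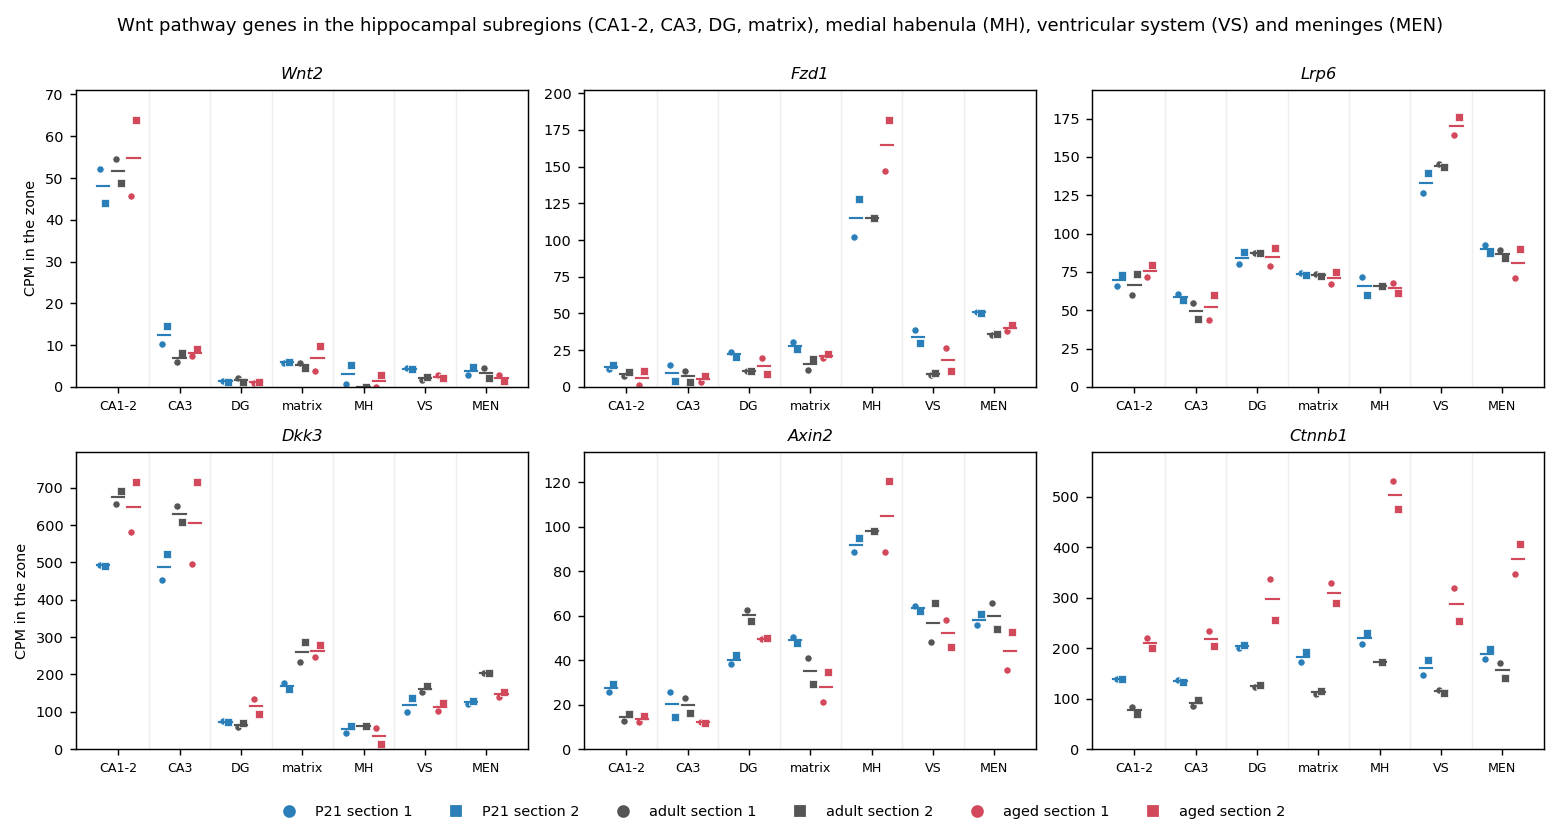
Levels in CPM (vertical axis) of 6 of the genes in the hippocampal subregions, MH, VS and MEN (horizontal axis), with 1 point per section coloured by age. Wnt2 peaks in CA1-2 (43.97 to 63.9 CPM), Fzd1 in MH and Lrp6 in VS, and Dkk3 is high in CA1-2 and CA3 and low in DG.

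Dkk3 (chr7:112116017-112159057, minus strand) encodes a secreted glycoprotein of the Dickkopf family, whose other members block Lrp co-receptors. In all 6 sections HP was the highest and TH the lowest of the 6 regions, 5.58-fold to 35.7-fold apart. Within the hippocampus, CA1-2 held 492 and 491 CPM at P21, 656 and 692 in adult and 580.4 and 715 in aged sections, and CA3 ranged from 452 to 715. DG held 59.0 to 134 CPM, below CA1-2 and CA3 in every section, so the 2 pyramidal zones overlapped each other and DG overlapped neither. The ranks between HP and TH were CTX and then FT in all 6 sections, while HY and STR overlapped.

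P21 levels of Dkk3 were below adult levels in each of the 6 regions. CTX measured 209.6 and 182 CPM at P21, 307 and 323 in adult and 273 and 319 in aged sections. The P21 over adult log2 fold change was -0.68 (SE 0.09) in CTX, -0.57 (SE 0.09) in HP, -0.73 (SE 0.11) in TH and -0.62 (SE 0.11) in FT, with -0.25 in HY and -0.39 in STR. The HY value was -0.15 without P21 section 2 and -0.16 in interior spots. Aged over adult, the log2 fold change was negative in 5 of 6 regions, at -0.11 in CTX, -0.29 in FT, -0.39 in HY, -0.40 in STR and -2.13 in TH. It was 0.28 in HP, where both aged sections (382 and 443 CPM) were above both adult ones (335 and 362). CA3 made up 59 of 285 and 38 of 241 HP spots in aged sections, and 27 of 350 and 36 of 419 in adult ones. CA1-2 made up 25 and 28 of them in aged and 30 and 35 in adult sections. Within CA1-2, aged and adult levels overlapped. The part of this make-up in the HP value was not tested. The STR value was -0.12 without aged section 1 and -0.77 without aged section 2. The FT value was -0.17 without aged section 1, -0.45 without aged section 2 and -0.58 in interior spots, and adult section 1 moved both (-0.28 in STR and -0.18 in FT without it).

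The TH difference was the largest of Dkk3. The level was 37.2 and 36.5 CPM at P21, 59.7 and 64.9 in adult and 15.2 and 12.4 in aged sections, a log2 fold change of -2.13 (SE 0.12) for aged over adult. No age groups overlapped. The share of TH spots with a Dkk3 UMI was 62.0 and 40.0% at P21, 63.4 and 65.4% in adult and 19.9 and 24.0% in aged sections, although aged TH had at least the spot depth of P21 section 2. In interior TH spots, whose neighbours were also TH, the difference was -2.32. Transcripts of another structure were lower in the same spots. The 6 choroid plexus markers summed to 945 and 967 CPM in TH at P21, 946 and 619 in adult and 69.6 and 42.8 in aged sections, and 3 of the 3 that could be tested fell with age there, although their sum over the whole section was 1865 to 2742 CPM in aged and 1490.02 to 3220 CPM in adult sections. None of the 6 was at 0 in any section. They were also lower in aged CTX (30.6 and 20.2 CPM against 437 and 279 in adult) and HY (156 and 59.1 against 598 and 392). The Dkk3 log2 fold change was -0.11 in CTX and -0.39 in HY. In TH the HP panel overlapped, at 474 and 518 CPM in aged and 511 and 529 in adult sections. The CTX panel was lower there, at 209 and 199 against 286 and 267. The FT panel was lower too, at 8791 and 8909 against 12844 and 12852. So were the STR panel (155 and 209 against 358 and 275) and the HY panel (565 and 625 against 777 and 1156). The MH panel (199 and 241 against 164 and 189) and the reticular thalamus panel (687 and 624 against 461 and 531) were higher. The MEN panel overlapped, at 108 and 86.0 against 131 and 88.9. The part of the markers and panels in the Dkk3 result was not tested.

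Axin2 (chr11:108920349-108950783, plus strand) encodes a scaffold of the destruction complex and is itself a target of the pathway. In CTX it measured 43.5 and 43.7 CPM at P21, 34.3 and 34.0 in adult and 29.1 and 29.97 in aged sections, so the 3 ages did not overlap. In STR it measured 36.6 and 42.8 at P21, 43.1 and 36.2 in adult and 24.2 and 23.9 in aged sections, where P21 and adult overlapped and aged lay below. Aged sections were below adult sections in CTX, HP, HY, STR and FT and overlapped them in TH, with a mean log2 fold change of -0.40. Outside the 6 regions, MH held the highest level, 88.9 to 121 CPM over 5 sections. In DG the level was 38.2 and 42.2 CPM at P21, 62.4 and 57.8 in adult and 49.6 and 49.8 in aged sections, whereas CA1-2 held 25.6 and 29.3, 12.9 and 15.9, and 12.2 and 15.1 CPM. P21 thus lay below adult in DG and above it in CA1-2. These levels rest on few UMIs, 53 and 33 at P21 and 92 and 95 in adult DG. In CA1-2 they rest on 30 and 16 at P21 and 12 and 16 in adult.

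Gsk3b (chr16:38089001-38246084, plus strand), the kinase of the complex, lay between 200.6 and 329.8 CPM in the 6 regions of the 6 sections. FT was lowest in 6 of 6 sections, with 243 and 244 CPM at P21, 239 and 267 in adult and 234 and 200.6 in aged sections. The other 5 regions changed rank from section to section. Its mean log2 fold change was -0.05 for P21 and -0.07 for aged over adult. In FT both aged sections lay below the other 4, and P21 lay within the adult range. Outside the 6 regions, VS held 229 and 215 CPM at P21, 227 and 197 in adult and 151 and 126 in aged sections. DG held 304 and 327 CPM at P21, 236 and 279 in adult and 237 and 214 in aged sections.

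Ctnnb1 (chr9:120929216-120960507, plus strand) encodes β-catenin, the pathway's transducer. Over whole sections it measured 176 and 197 CPM at P21, 122 and 129 in adult and 369 and 318 in aged sections. In CTX the values were 167 and 168 at P21, 91.0 and 99.9 in adult and 299 and 243 in aged sections, and in TH they were 209 and 234, 179 and 182, and 558 and 494. The 3 ages did not overlap in any of the 6 regions, nor in CA1-2, CA3, DG, the hippocampal matrix, VS or MEN. In CA1-2, the zone with the lowest mean over the 6 sections, the sections held 139 and 139 CPM at P21, 83.6 and 70.6 in adult and 219 and 201 in aged brain.

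The aged over adult log2 fold change of Ctnnb1 was 1.495 in CTX, 1.31 in HP, 1.58 in TH, 1.41 in HY, 1.49 in STR and 1.39 in FT, with SE of 0.09 to 0.12. P21 over adult it was 0.82 in CTX, 0.69 in HP, 0.64 in STR, 0.58 in FT, 0.35 in HY and 0.32 in TH (the plot of fold changes). The HY value at P21 was 0.11 with regions drawn from each section alone and 0.20 without P21 section 2. TH was the highest region in 6 of 6 sections, at a log2 ratio of 0.36 to 0.84 over the mean of the other 5. Below TH, the order was HY, STR, FT, HP and CTX in mean, and neighbours in that order overlapped over the 6 sections. Leaving out 1 section at a time moved the mean over the 6 regions to between 0.50 and 0.63 for P21 and between 1.31 and 1.56 for aged brain. Immediate early genes, a set of 6 activity-induced genes, were also high in aged CTX (2564 and 2180 CPM, against 635 and 389 in adult and 244 and 244 at P21), and their part in the Ctnnb1 result was not tested. In HP they summed to 1106 and 1049 CPM in aged and 435 and 303 in adult sections, and in STR to 1073 and 1304 against 540.5 and 369. In FT the sums were 456 and 492 against 362 and 238. In HY they were 430 and 285 against 208 and 171. In TH, where the Ctnnb1 fold change was largest, they were 252 and 307 against 241 and 164. Both aged sums were thus above both adult sums in all 6 regions. None of the 6 genes was at 0 in a section. At P21, where Ctnnb1 was above adult, the immediate early genes were below adult in CTX, HP, TH, HY and FT. In STR they overlapped, at 299.8 and 371 CPM at P21 against 540.5 and 369 in adult sections.

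**Figure D3:**
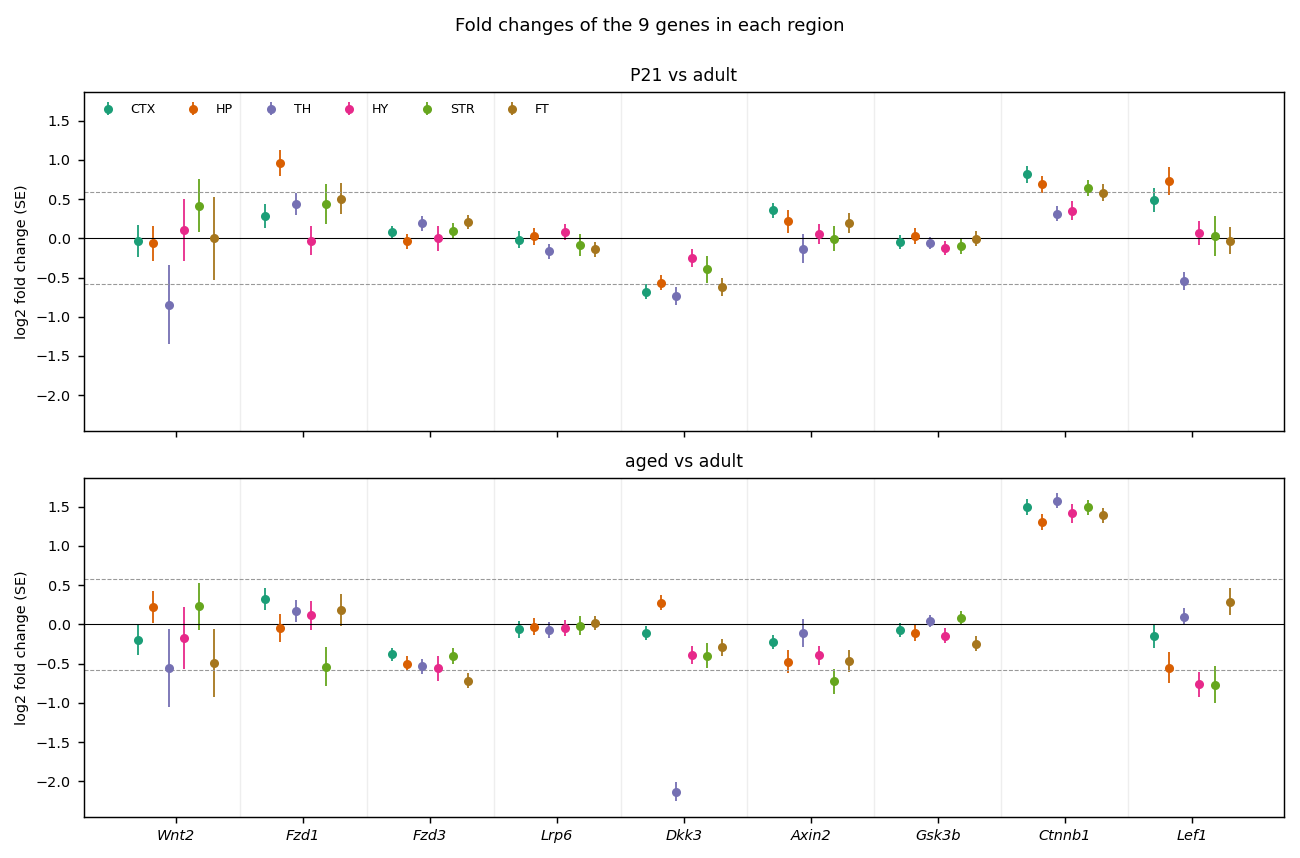
Fitted log2 fold changes (vertical axis) of the 9 genes (horizontal axis) in the 6 regions, P21 over adult and aged over adult. Points are regions, bars are SE and dashed lines mark a 1.5-fold difference; Ctnnb1 lies between 1.31 and 1.58 in aged over adult, and Dkk3 in TH at -2.13.

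Lef1 (chr3:131110471-131224356, plus strand) encodes a nuclear partner of β-catenin. TH was its highest region in 6 of 6 sections, with 98.4 and 109 CPM at P21, 143 and 165 in adult and 144 and 178 in aged sections. The log2 ratio of TH over the mean of the other 5 regions was 2.46 and 2.65 at P21, 3.22 and 3.44 in adult and 3.58 and 3.80 in aged sections. The next zone, MH, held 43.2 to 64.6 CPM, and the other 5 regions held 7.26 to 23.3 CPM and overlapped each other. In TH the P21 sections lay below the rest (log2 fold change -0.55, SE 0.11), and adult and aged overlapped.

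Outside TH the age order of Lef1 was different. HP held 23.3 and 18.7 CPM at P21, 13.7 and 11.9 in adult and 7.26 and 9.52 in aged sections. HY held 19.4 and 21.2, 21.1 and 17.2, and 10.9 and 12.1 CPM, and STR held 12.9 and 15.4, 13.8 and 13.7, and 8.72 and 7.44 CPM. Aged sections thus lay below adult sections in HP, HY and STR (log2 fold changes of -0.55, -0.77 and -0.77). The STR value was -0.88 to -0.65 leaving out 1 section, and it was -0.0495 after thinning to the lowest total. The HY value was -0.59 with regions drawn from each section alone and -0.63 without adult section 1. The HP value was -0.39 in interior spots. In FT the aged over adult value was 0.29, and it was -0.07 with regions drawn from each section alone. The 8 marker genes of the TH panel were also lower in aged HP, HY and STR, with sums in HP of 448 and 407 CPM at P21, 273 and 274 in adult and 179 and 181 in aged sections. In CTX, where Lef1 levels of aged and adult sections overlapped, they were lower too, at 272 and 282, 183 and 183, and 89.1 and 84.1 CPM, and in FT aged (522 and 376) and adult sums (428 and 456) overlapped. In TH they summed to 2922 and 3075, 3909 and 4125, and 5364 and 5476 CPM. Their part in the Lef1 result was not tested.

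**Figure D4:**
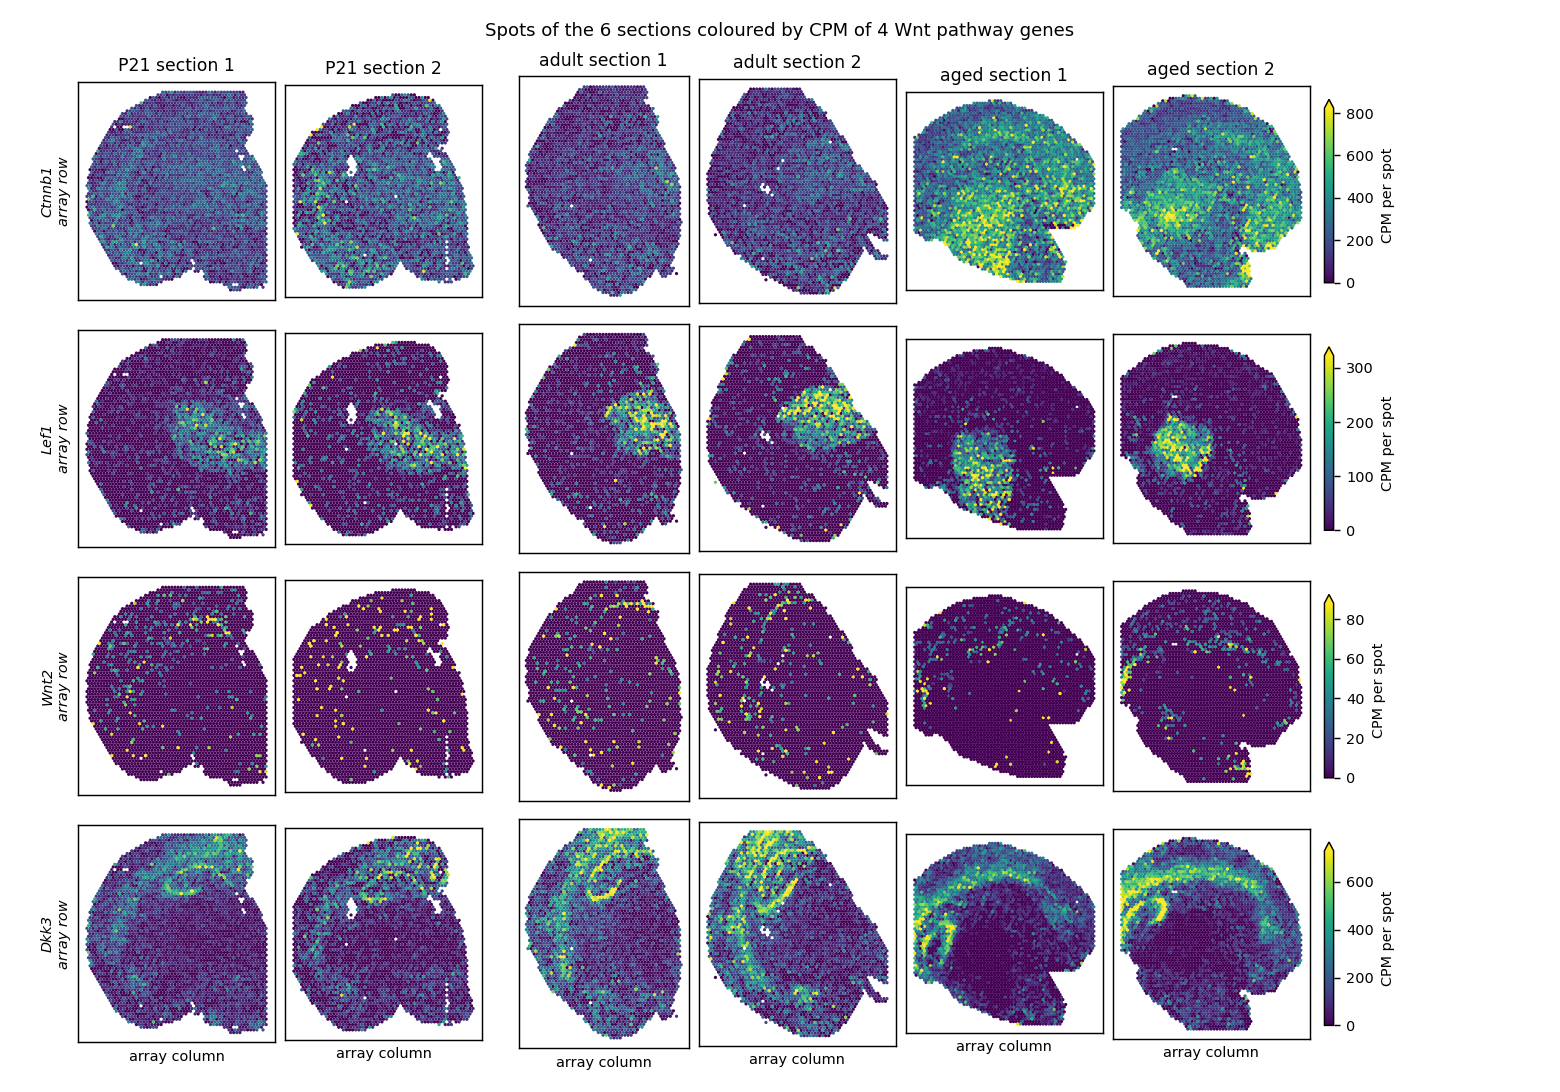
Spots of the 6 sections at their array positions, coloured by CPM per spot of Ctnnb1, Lef1, Wnt2 and Dkk3, with 1 colour scale per gene. Sections are shown as they lay on the slide and are not aligned; Lef1 fills the thalamus of each section, Dkk3 outlines CA1-2 and CA3, and Ctnnb1 is brighter throughout both aged sections.

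The deposited Moran's I, a score near 0 for a gene scattered at random over spots and larger for one gathered in areas, was highest for Dkk3 and Lef1 in each section. It was 0.446 and 0.285 for Dkk3 at P21, 0.397 and 0.437 in adult and 0.620 and 0.639 in aged sections, and for Lef1 it was 0.402 and 0.345, 0.421 and 0.508, and 0.563 and 0.577. Both genes were above the 98th percentile of all listed genes in each section. For Ctnnb1 it was 0.113 and 0.0914, 0.113 and 0.0909, and 0.258 and 0.3004. Lrp6 had the lowest range, 0.0139 to 0.0435. Each of the 9 genes scored higher in both aged sections than in the other 4, as did 55% of the 16205 genes listed in all 6 sections. By percentile among listed genes this order held only for Ctnnb1 (91.7 and 92.2 in aged sections, at most 89.7 in the others). Fzd1 stood at 82.2 and 84.4 in aged sections and at 87.5 and 87.7 at P21. Lef1 stood at 98.7 in both aged sections and at 99.3 and 99.6 in adult sections. Lrp6 stood at 64.1 and 57.6 in aged sections and at 69.4 in adult section 2.

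Across the 36 sums of region and section, the genes most like each of the 9 by Pearson's r of log2 CPM were as follows. They are given as a description because the sums share libraries and include the aged sections. There a shared difference of kit or probes cannot be told apart from a shared difference of age. Ctnnb1 was most like Pitrm1 (r = 0.935) and Strap (0.925). Lef1 was most like Tafa4 (0.98) and Synpo2 (0.974), of which Synpo2 is in the TH panel. Dkk3 was most like Chrd (0.944), which encodes a secreted BMP antagonist, and Nptx1 (0.944), a neuronal pentraxin in the CA3 panel. Wnt2 was most like Hpca (0.931), which encodes hippocalcin, and Fzd1 most like Slc17a6 (0.877), the vesicular glutamate transporter VGLUT2. Fzd3 was most like Negr1 (0.917). For Axin2, Gsk3b and Lrp6 the closest genes were Fbxo9 (0.812), Akap6 (0.838) and Sbf2 (0.815).

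All genes were compared in edgeR's quasi-likelihood test. A call needed both a fold change over 1.5 and an adjusted p (Benjamini-Hochberg within a region) under 0.05. At P21, 17.1% of all genes tested were called in at least 1 region, and in aged sections 39.1% were. As the 9 genes were chosen by these contrasts, no calls are given for them. Over all genes, the median of the mean log2 fold change was -0.01 at P21 and -0.03 in aged brain.

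The rest of the pathway was taken from lists of 133 other genes, of which 131 were in the files and 93 were tested in at least 1 region. At P21, 31 of the 93 were called in at least 1 region (17.1% of all genes), 16 of them higher than adult (9.9% of all genes) and 15 lower (7.28% of all genes). In aged brain 42 were called (39.1% of all genes), 22 higher (19% of all genes) and 21 lower (21.4% of all genes), with Ccnd2 in both directions. The median over the list of the mean log2 fold change was 0.07 at P21 and -0.06 in aged brain. By region at P21, 10 of 90 were called in CTX (5.44% of all genes), 16 of 92 in HP (6.9%), 10 of 89 in TH (7.04%), 7 of 86 in HY (4.1%), 5 of 88 in STR (4.01%) and 15 of 93 in FT (8.69%). In aged brain 10 of 91 were called in CTX (10.5% of all genes), 17 of 88 in HP (11.6%), 13 of 90 in TH (13.8%), 11 of 87 in HY (11.9%), 17 of 89 in STR (14.3%) and 26 of 92 in FT (23.8%).

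**Figure D5:**
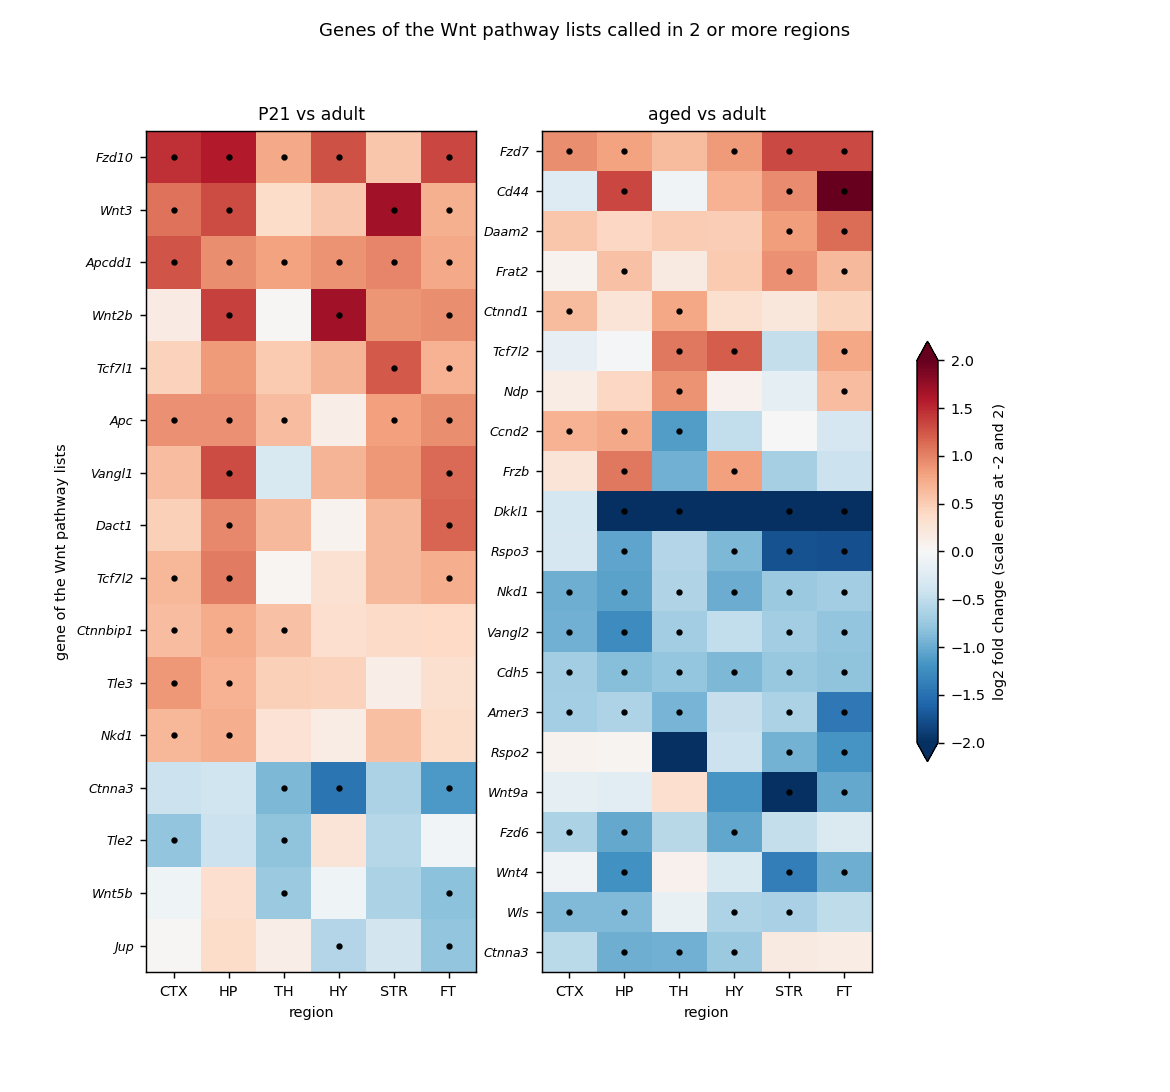
Log2 fold changes (colour, blue lower and red higher than adult, with the scale ending at -2 and 2) of listed Wnt pathway genes called in 2 or more regions (at most 12 in each direction), P21 and aged over adult; columns are the 6 regions and a dot marks a called gene. Apcdd1 is dotted in all 6 regions at P21, and Nkd1 and Cdh5 in all 6 in aged brain.

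Each role holds few genes, so nothing about a role is read from the counts below. Among ligands, 4 of 9 rose (9.9% of all genes) and 3 fell (7.28%) at P21. Wnt3 rose in CTX, HP, STR and FT, and in STR it measured 13.1 and 9.35 CPM at P21 against 3.88 and 3.62 in adult sections (log2 fold change 1.69, SE 0.36, adjusted p = 0.00546). Wnt2b rose in HP, HY and FT, by up to 1.68 in HY (adjusted p = 0.00281), and Wnt4 and Wnt5a rose in HP (0.95 and 0.72). Wnt5b fell in TH and FT, and Wnt7a, a ligand of barrier endothelium, fell in TH (-0.75). Wnt7b fell in HP (-0.64). In aged brain 1 of 9 rose (19% of all genes) and 4 fell (21.4%). Wnt4 fell in HP, STR and FT, by -1.38 in STR (SE 0.27, adjusted p = 0.000625), Wnt9a fell in STR and FT and Wnt7b rose in FT (0.62). Wls, which carries Wnt ligands to the cell surface, rose in HP at P21 (0.61) and fell in aged CTX, HP, HY and STR. In HP, Wls measured 66.7 and 65.7 CPM at P21, 40.8 and 44.9 in adult and 24.5 and 21.1 in aged sections.

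Among 11 receptors other than the members, 1 rose (9.9% of all genes) and 2 fell (7.28%) at P21. In aged brain 5 rose (19% of all genes) and 1 fell (21.4%). Fzd10 rose at P21 in each of the 5 regions where it was tested, and it was not tested in STR. In HP it rose by 1.58 (SE 0.27, adjusted p = 0.00208), from 2.76 and 2.87 CPM in adult to 9.17 and 7.72 CPM at P21. Fzd7 rose in aged CTX, HP, HY, STR and FT, by 0.81 to 1.32, and in FT it measured 5.41 and 5.92 CPM at P21, 9.39 and 9.27 in adult and 25.4 and 22.3 in aged sections. Fzd7 fell in FT at P21 (-0.69). Fzd6 fell in aged CTX, HP and HY, by -1.04 in HY (adjusted p = 0.00746).

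Extracellular modulators lay on the same side of the membrane as Dkk3. At P21, 1 of 10 rose (9.9% of all genes) and 3 fell (7.28%). Apcdd1, an inhibitor that binds Wnt and Lrp, rose in all 6 regions by 0.76 to 1.26 (adjusted p from 4.91e-06 to 0.00621), with 33.6 and 32.5 CPM at P21 and 13.5 and 14.3 in adult CTX. Rspo1, a ligand that keeps Frizzled receptors at the surface, fell in CTX at P21 (-1.25). In aged brain 2 rose (19% of all genes) and 4 fell (21.4%). Dkkl1, a relative of Dkk3, fell in HP, TH, STR and FT by -3.50 to -2.22 (adjusted p from 7.54e-07 to 7.35e-05), and in STR it measured 7.73 and 10.02 CPM at P21, 12.0 and 17.3 in adult and 0.909 and 1.55 in aged sections. In CTX, its region of highest level, Dkkl1 measured 39.6 and 42.7 CPM in adult and 34.1 and 31.1 in aged sections and was not called (-0.35). The 6 choroid plexus markers were lower in aged TH, as given for Dkk3, and in FT, where they summed to 754 and 1054 CPM in aged and 2838 and 1801 in adult sections. In HP (1073 and 64.2 against 571 and 237) and STR (1153 and 375 against 743 and 481) aged and adult sums overlapped. In CTX, where Dkkl1 was not called, they were 30.6 and 20.2 against 437 and 279. Their part in the Dkkl1 result was not tested. Rspo3 and Rspo2 fell in 4 and 2 regions (Rspo3 in FT by -1.76), and Ndp, which encodes the Frizzled ligand norrin, rose in TH (0.90) and FT.

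In the destruction complex and its Dishevelled partners, 4 of 22 genes rose (9.9% of all genes) and 1 fell (7.28%) at P21. In aged brain 1 rose (19% of all genes) and 3 fell (21.4%). Apc, the scaffold that works with Axin, rose at P21 in CTX, HP, TH, STR and FT by 0.61 to 0.93 (adjusted p from 2.41e-07 to 0.000681), with 633 and 669 CPM at P21, 345 and 363 in adult and 302 and 283 in aged FT. Mature oligodendrocyte markers were also high at P21, with 8 of 8 tested and 6 higher in FT, where they summed to 71204 and 86128 CPM against 38514 and 36903 in adult. They were also higher at P21 in CTX, HP, TH and STR, where Apc rose. In HY, where Apc was not called (0.13), they summed to 18679.5 and 18675.5 CPM at P21 against 12244 and 11135 in adult. None of the markers was at 0 in a section, and their part in the Apc result was not tested. Nkd1, a feedback inhibitor that acts on Dishevelled, rose in CTX and HP at P21 and fell in all 6 aged regions by -1.07 to -0.61. In HP, Nkd1 measured 29.0 and 23.6 CPM at P21, 15.0 and 16.8 in adult and 8.14 and 6.76 in aged sections. Amer3 fell in 5 aged regions, by -1.44 in FT, and Frat2, a Gsk3-binding protein, rose in aged HP, STR and FT. Dact1 rose at P21 in HP (0.96) and FT (1.16). Axin1, Gsk3a and Csnk1a1 were called in no region at either age.

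Among nuclear factors, 4 of 17 rose (9.9% of all genes) and 3 fell (7.28%) at P21, and 6 rose in aged brain (19%). Tcf7l2, the Tcf factor of the thalamus and of young oligodendrocytes, rose at P21 in CTX, HP and FT, by 1.04 in HP (SE 0.16, adjusted p = 0.00134). In aged brain Tcf7l2 rose in TH, HY and FT, but its HY level was 36.3 and 103 CPM against 33.1 and 26.1 in adult, so that aged section 2 carried the difference. Tcf7l1 rose at P21 in STR and FT, and the co-repressor Tle3 rose at P21 in CTX and HP and in aged FT. Ctnnbip1, which blocks the contact of β-catenin with Tcf, rose at P21 in CTX, HP and TH by 0.59 to 0.75. Of the 3 that fell at P21, Tle2 did so in CTX (-0.79) and TH (-0.81), and Pygo1 (-0.69) and Tle4 (-0.59) in TH.

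Of 5 genes tested on the target list, 4 were called in aged brain (39.1% of all genes). Of these, 3 were higher (19% of all genes) and 2 lower (21.4%), with Ccnd2 in both directions. At P21 edgeR called 0 of the genes on this list and so did DESeq2, with 3 higher and 2 lower at an unadjusted edgeR p under 0.05. The list leaves out Axin2, a member, and the feedback inhibitor Nkd1, which was counted with the destruction complex and rose at P21. Cd44, a surface receptor of reactive glia and leukocytes, rose in aged FT by 2.15 (SE 0.13, adjusted p = 7.43e-10), from 12.3 and 14.6 CPM in adult to 60.9 and 60.8, and also in HP and STR. Microglial markers moved the same way in FT, where 5 of 6 rose and their sum was 1593 and 1704 CPM in aged, 578 and 646 in adult and 483 and 506 at P21. None of the 6 was at 0 in a section, and their part in the Cd44 result was not tested. Ccnd2, a cyclin, rose in aged CTX (0.69) and HP (0.76) and fell in aged TH (-1.11). In TH it measured 26.2 and 22.6 CPM in adult and 11.8 and 10.1 in aged sections.

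Among 9 cadherin and catenin partners, 2 fell at P21 (7.28% of all genes). In aged brain 1 rose (19% of all genes) and 4 fell (21.4%). Ctnna3, an α-catenin, fell at P21 in TH, HY and FT, by -1.46 in HY, and in aged HP, TH and HY. Jup, or γ-catenin, the closest relative of Ctnnb1, fell at P21 in HY and FT, where it measured 79.3 and 81.4 CPM against 143 and 143 in adult (-0.79, SE 0.09, adjusted p = 2.24e-06). Cdh5, the cadherin of endothelial junctions, fell in all 6 aged regions by -0.91 to -0.70. The endothelial list to which Cdh5 belongs had 9 of 9 genes tested in FT, of which 1 rose and 4 fell in aged sections, and it summed to 331 and 329 CPM in aged and 328 and 321 CPM in adult FT, with none at 0. Its sum was lower in both aged sections in HP (171 and 174 against 224 and 193), CTX (191 and 190.2 against 209 and 193) and STR (227 and 221 against 258 and 231), and overlapped in TH (316 and 234 against 300.2 and 299.5) and HY (231 and 246 against 274 and 241). Over whole sections it was 235 and 222 CPM in aged and 277 and 255 in adult brain. Its part in the Cdh5 result was not tested. Cdh2 fell in aged FT (-0.61), Ctnnd1 rose in aged CTX and TH, and Ctnna2 was called in no region at either age. In the planar polarity branch, in which Fzd3 acts, Vangl2 fell in 5 aged regions by up to -1.26 in HP (adjusted p = 0.00222), Vangl1 rose at P21 in HP and FT, and Daam2 rose in aged STR and FT, from 126 and 113 to 254 and 274 CPM in FT.

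Whether the age difference of a listed gene varied among the 6 regions was tested on all 36 sums with section as a block. It did so for 16 of 93 genes between P21 and adult (13.2% of all genes) and for 51 of 93 between aged and adult (44.2% of all genes), at an adjusted p under 0.05. The 9 members were not tested in this way.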

How the data were processed

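The authors deposited, for each section, a matrix of UMI counts per spot and gene, aligned to mm10 with Space Ranger (per the file headers 3.1.1 for the aged group and 2.0.0 otherwise, but 2.1.0 in the submitters' processing notes, which also list Seurat 5.1.0). They also deposited Moran's I, a score of spatial clustering per gene, computed by the same software. A spot was kept from 250 genes and 500 UMIs upward. Clustering used scanpy 1.11.5 with 3000 variable genes, 10 principal components and Leiden, and 14 clusters were named from marker panels. The 9 genes, the pathway lists and the genes named in the study, 700 in all, were kept out of it. UMI counts were summed per section and region, and levels are CPM of those sums.

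Sums of all 6 sections were tested by edgeR 4.0.16 (quasi-likelihood, TMM) in R 4.3.3, with DESeq2 1.42.0 as an alternative. Tested genes passed filterByExpr, held a UMI in at least 10% of all spots and in over 10% of the spots of the region at either age. Each section came from 1 mouse. List genes were named when called in at least 2 regions one way (at most 12 per direction, by mean fold change). The 3 genes with the lowest region-by-age p-values of each comparison were also named, and 9 genes were named always. For each member, the 1 or 2 genes most like it are given. List genes given with a single region were otherwise chosen after their values were seen. The scripts were tested on simulated data. The members and lists were chosen with earlier results of these data known. SE come from the edgeR fit to all 6 sections, in which the ages, with 2 sections each, share 1 estimate of the spread. Protein sequences were not used here.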

Additional observations from a re-analysis of the deposited data

Results flagged for a closer look

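The age difference varied among regions, in the edgeR test of the region-by-age terms, for 16 of 93 listed genes at P21 and for 51 of 93 in aged brain. The P21 count depended on single sections: it was 6 without P21 section 1, 10 without P21 section 2, 9 without adult section 1, 7 without adult section 2 and 33 without either aged section. Over all genes the P21 count moved the same way, from 1496 to 285, 369, 319 and 254, and to 2648 or 2652 without an aged section. The aged count was 24 without adult section 1 and 31 without adult section 2, and over all genes it went from 5010 to 2630 and 3280. The lowest adjusted p at P21 was that of Jup (6.32e-06), whose P21 over adult log2 fold change was -0.79 in FT, -0.59 in HY, 0.02 in CTX and 0.37 in HP. Apc followed (adjusted p = 9.71e-06), with 0.93 in FT and 0.13 in HY. Daam2 came next (5.09e-05), with -0.62 in HY and 0.26 in CTX. In aged over adult, Dkkl1 had the lowest adjusted p (6.35e-09), with -3.50 in STR and -0.35 in CTX. Ccnd2 (6.39e-09) ran from 0.76 in HP to -1.11 in TH. Prickle2, a planar polarity gene (3.26e-08), ran from 0.35 in HP to -0.53 in FT.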

How the results depend on the processing

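Each age group held 2 sections, so the spread is poorly known, and aged tissue differs from adult in kit, probe design, slide, software and animal source as well as age. The count of listed genes called in at least 1 region was 31 at P21 and 42 in aged brain. It was 7 and 15 when the fold itself was tested against 1.5 (glmTreat) and 46 and 58 without the detection filter, which tests more genes. DESeq2 gave 27 and 33, thinning to the lowest total 29 and 40, RLE size factors 32 and 40, library size alone 32 and 42, interior spots 31 and 44, and regions drawn from each section alone 30 and 44. Leaving out 1 section gave 22 to 34 at P21 and 36 to 45 in aged brain. In the labels, sections with the same replicate number were linked by that number only. Their deviations over whole sections correlated at 0.19 for P21 and adult, -0.17 for P21 and aged and -0.44 for adult and aged. A replicate block gave 31 and 40 calls, with 41 when the aged numbers were crossed, a setting chosen after seeing the data. The region-by-age count at P21 was 16, with 13 without FT and 6 to 33 leaving out 1 section, and in aged brain it was 51, with 30 without FT and 24 to 51 leaving out 1 section. The mean of Frzb in aged over adult changed sign, from 0.014 to -0.057 after thinning, and ranged from -0.042 to 0.066 leaving out 1 section (-0.042 without adult section 2, -0.026 without aged section 1), and the cause was not tested. The mean fold change of Ctnnb1 over 6 regions lay within 0.50 to 0.63 (P21) and 1.31 to 1.56 (aged), and that of Dkk3 within -0.65 to -0.46 and -0.62 to -0.43, under the alternatives run.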

Other observations

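Spots that matched no marker panel made up 2049 of the 20336 spots (10.1%). Ctnnb1 measured 208 and 247 CPM there at P21, 135 and 140.1 in adult and 417 and 407 in aged sections, and Fzd3 measured 161 and 166, 155 and 165, and 132 and 119 CPM. Lef1 was low there, at 5.05 to 12.97 CPM.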
